A study of Mus musculus with 6 samples.

Results

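Cardiac muscle genes were followed in dissected mouse airways, as a measure of how much heart-type muscle each dissected sample held. The list held 33 genes, fixed by name: sarcomere proteins, calcium-handling proteins, natriuretic peptides, cardiac transcription factors and energy supply. A gene was read from the probe sets that the platform annotation assigns to that single gene, and where there were several, from the one with the highest mean over the 6 arrays. All 33 were measured, out of 19938 named genes.

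The 3 mutant arrays came from Scgb1a1-cre:Foxp1flox/flox:Foxp4flox/flox mice and the 3 control arrays from Scgb1a1-Cre mice. Both groups carried the driver, were 9 weeks old and of mixed C57BL/6 and 129X1 background, and their larger proximal airways were cut by hand from stained frozen lung. Scgb1a1 encodes a secretory protein of club cells, so the driver acts in airway epithelium. Foxp1 and Foxp4, forkhead transcription factor genes, were floxed in the mutants alone. Since no label states that every array had its own mouse, the p-values below describe how far these samples lay apart, part of which may be technical.

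In rodents, heart muscle cells of atrial type continue from the left atrium along the wall of the pulmonary veins into the lung, where the veins run near the airways. A heart muscle cell shortens when calcium released from its internal store binds troponin on the thin filament and lets myosin of the thick filament pull on actin. Atrial muscle also stores and secretes atrial natriuretic peptide, and it uses its own set of myosin light chains.

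Each value is the log2 signal of a probe set, so a step of 1 is a doubling. Array medians lay between 5.89 and 5.95 and the lower quartiles between 4.42 and 4.50, and pairs of arrays correlated across genes at 0.972 to 0.993. No detection calls were used here, so no value could be called above background. Foxp1 was 0.23 lower in mutants (SE 0.09, limma adjusted p = 0.444), Foxp4 was 0.69 lower (SE 0.20, adjusted p = 0.339) and Scgb1a1 was 0.25 higher (adjusted p = 0.476), and none of these passed. Whether the probe sets of Foxp1 and Foxp4 lie in the floxed exons is not known here, so they are no firm check of the deletion. With 3 arrays a group, precision is limited by their number.

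The cardiac genes varied together across arrays, and not along the line between the genotypes. Their mean log2 value was 8.17, 9.29 and 7.26 in mutants 1 to 3, against 9.65, 7.53 and 8.15 in controls 1 to 3. Control 1 and mutant 2 were the high arrays and mutant 3 and control 2 the low ones, so each genotype held a high, a middle and a low array. The median gene was 4.77-fold higher in mutant 2 than in mutant 3, and 5.07-fold higher in control 1 than in control 2. Control 1 or mutant 2 was the highest array for 32 of the 33 genes, and mutant 3 or control 2 the lowest for 30. The order mutant 2, mutant 1, mutant 3 held for 29 genes and the order control 1, control 3, control 2 for 29. Both held together for 28 genes, against 4.87% of all genes. These orders were read from the same values and are a description. In bulk tissue, fewer heart muscle cells and less of their RNA per cell cannot be told apart.

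**Figure D1:**
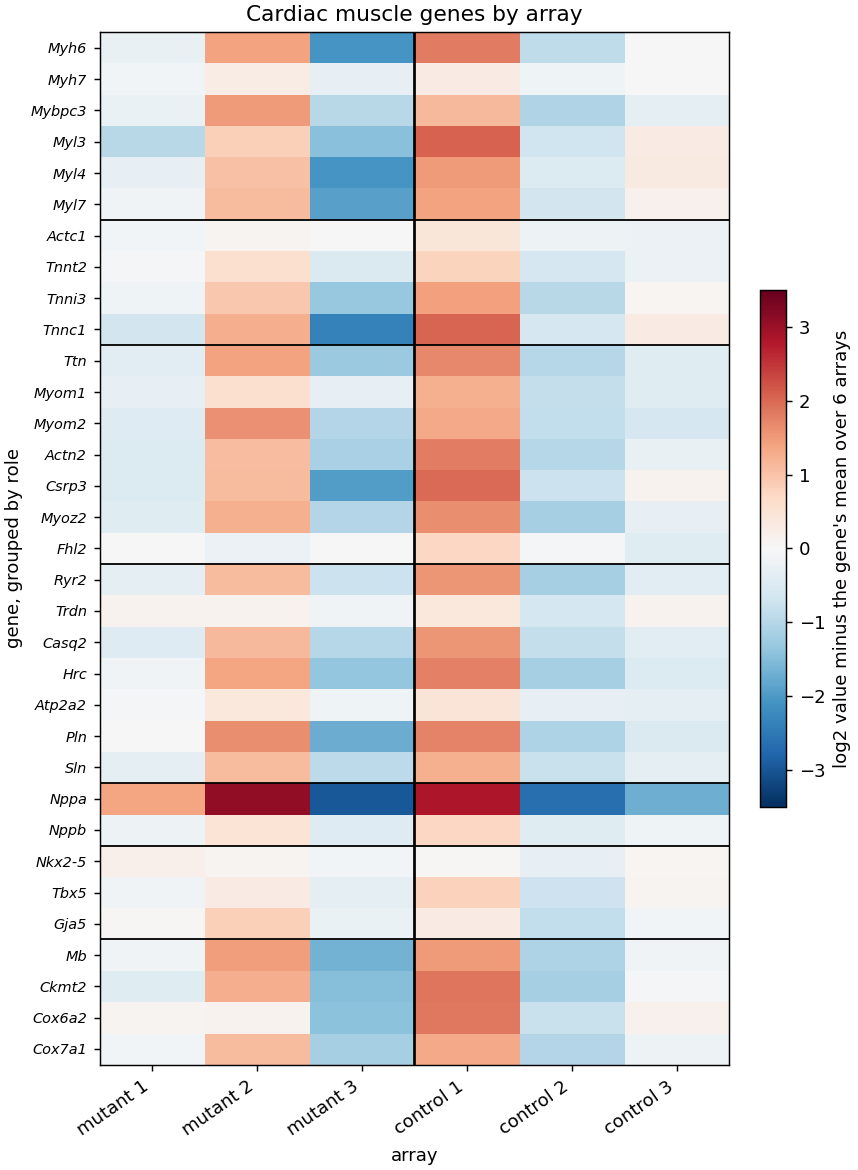
The heat map shows each cardiac gene's log2 value minus its mean over the 6 arrays, with genes grouped by role down the page and the 3 mutant arrays left of the 3 control arrays. Red columns at mutant 2 and control 1 and blue ones at mutant 3 and control 2 run through most rows, while Actc1, Myh7 and Nkx2-5, with ranges of 0.62, 0.59 and 0.47, stay pale.

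To show genes at both ends of this spread, the promoters of Nppa, Tnnc1 and Myh6, the widest-ranging members with a single entry in the RefSeq promoter table, are given with that of Nkx2-5, the narrowest. Each window runs 5′ to 3′ along the gene from 250 bases before to 50 after the annotated start on GRCm38.p6. Nppa lies on the plus strand at chr4:148000472-148000771 and Tnnc1 on the plus strand at chr14:31208062-31208361. Myh6 lies on the minus strand at chr14:54966558-54966857 and Nkx2-5 on the minus strand at chr17:26841516-26841815. Capitals mark matches on either strand to any of 6 motifs. The core promoter box that positions RNA polymerase was searched as TATAAA. The motif bound by zinc finger factors such as Gata4, active in heart muscle, was searched as AGATAA. The muscle motif bound by TEAD factors was searched as CATTCC. The motif bound by T-box factors such as Tbx5 was searched as AGGTGT. The other two were the CArG box of serum response factor and the MEF2 site.
Nppa: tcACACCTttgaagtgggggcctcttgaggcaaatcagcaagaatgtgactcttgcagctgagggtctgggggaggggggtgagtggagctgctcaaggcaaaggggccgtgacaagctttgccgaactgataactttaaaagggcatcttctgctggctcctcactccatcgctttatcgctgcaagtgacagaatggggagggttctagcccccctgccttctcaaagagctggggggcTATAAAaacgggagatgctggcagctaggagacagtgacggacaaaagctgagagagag
Tnnc1: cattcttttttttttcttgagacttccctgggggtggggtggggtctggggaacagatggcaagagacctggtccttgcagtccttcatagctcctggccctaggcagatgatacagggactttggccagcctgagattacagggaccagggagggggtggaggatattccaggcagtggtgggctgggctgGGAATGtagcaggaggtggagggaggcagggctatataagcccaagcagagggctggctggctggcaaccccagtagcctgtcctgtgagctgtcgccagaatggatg
Myh6: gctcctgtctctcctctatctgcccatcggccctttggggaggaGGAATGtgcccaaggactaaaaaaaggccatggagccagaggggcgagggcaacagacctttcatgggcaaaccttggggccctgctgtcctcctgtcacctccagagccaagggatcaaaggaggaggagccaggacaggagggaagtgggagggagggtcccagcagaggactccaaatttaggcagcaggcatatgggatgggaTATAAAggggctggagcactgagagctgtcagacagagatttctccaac
Nkx2-5: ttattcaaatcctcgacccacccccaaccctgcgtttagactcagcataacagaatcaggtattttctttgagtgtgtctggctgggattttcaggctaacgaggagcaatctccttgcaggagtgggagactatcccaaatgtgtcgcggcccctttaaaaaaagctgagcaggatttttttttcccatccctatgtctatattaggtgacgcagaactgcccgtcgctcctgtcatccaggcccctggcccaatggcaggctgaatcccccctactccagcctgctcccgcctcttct

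The core promoter letters stood in the windows of Nppa and Myh6, the T-box motif in that of Nppa on the opposite strand, and the TEAD motif in those of Tnnc1 and Myh6 on the opposite strand. The core promoter match began at position -9 from the annotated start in Nppa and at position 2 in Myh6. Variants of its letters were not searched, so an unmarked window may still hold a related box. No searched motif was found in the Nkx2-5 window. The table held 33 windows for 27 of the 33 genes. The CArG box was found in 6 of these, those of Myl3, Myl7, Actc1 and Myom1 and both of Fhl2, against 1.63% of all 32851 windows. The MEF2 site was found in 5, those of Mybpc3, Ttn, Myoz2, Casq2 and Fhl2, against 3.19% of all windows. The core promoter letters were found in 6 of the 33 windows and 13.6% of all, the zinc finger motif in 6 and 11.2%, the TEAD motif in 8 and 14.7%, and the T-box motif in 4 and 13.7%. A MEF2 site and the core promoter box can share letters. A match of letters is a description of the window. Of the genes with a CArG box, Myl3, Myl7 and Myom1 ranged over 3.53, 3.33 and 2.07, and Fhl2 and Actc1 over 1.15 and 0.62.

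The thick filament genes encode myosin and the proteins that sit on it. Myh6, the fast myosin heavy chain of the adult mouse heart, read 9.13, 10.80 and 7.33 in mutant arrays, against 11.22, 8.51 and 9.38 in control arrays. Its groups overlapped across a range of 3.89, or 14.8-fold. The light chains followed it. Myl4, the essential light chain of atrial muscle, read 9.85, 11.18 and 8.08 in mutants, against 11.64, 9.67 and 10.46 in controls. Myl7, the regulatory light chain of atrial muscle, ranged over 3.33 and was again highest in control 1 and lowest in mutant 3. Myl3, the essential light chain of ventricular and slow muscle, ranged over 3.53, and Mybpc3, cardiac myosin binding protein C, over 2.56. Myh7, the slow heavy chain of the ventricle, kept between 6.04 and 6.61 in mutants, against 6.20 and 6.63 in controls, in the same order of arrays as Myh6.

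An intron of Myh6 carries the gene of the muscle microRNA miR-208a, whose hairpin has a probe set of its own. It read 3.82, 3.79 and 3.72 in mutants, against 3.86, 3.90 and 3.88 in controls, below the lower quartile of every array, while Myh6 spread over 14.8-fold. This row was picked after its values were seen. The mature miRNAs are given 5′ to 3′ from RefSeq (GRCm38.p6, chr14, minus strand), with the seed, bases 2 to 8, in capitals.
miR-208a-3p: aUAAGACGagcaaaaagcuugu
miR-208a-5p: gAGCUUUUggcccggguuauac

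The thin filament genes split. Tnnc1, the troponin that binds calcium in heart and slow muscle, read 8.37, 10.30 and 6.67 in mutants, against 11.07, 8.42 and 9.30 in controls, a range of 4.40 or 21.1-fold. Tnni3, the cardiac inhibitory troponin, read 10.50, 11.61 and 9.32 in mutants, against 12.10, 9.68 and 10.72 in controls. Both genotypes again held a high and a low array. Tnnt2, which ties troponin to tropomyosin, ranged over 1.35. Actc1, the cardiac alpha-actin, read 11.99, 12.18 and 12.07 in mutants, against 12.51, 11.92 and 11.89 in controls. Its values stayed within 1.53-fold. The protein is nearly identical to the smooth and skeletal muscle actins, and cross-hybridisation between their transcripts was not tested.

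Among the genes of titin, the Z disc and the M band, 6 of 7 ranged over at least 2.07. Csrp3, a LIM protein of the Z disc, read 8.07, 9.64 and 6.57 in mutants, against 10.52, 7.78 and 8.67 in controls, a range of 3.94. Ttn, the giant elastic protein that spans the sarcomere from Z disc to M band, read 6.88, 8.64 and 5.94 in mutants, against 8.94, 6.25 and 6.83 in controls. Myom1 (range 2.07) and Myom2 (2.60), which cross-link myosin at the M band, Actn2 (2.94), which cross-links actin at the Z disc, and Myoz2 (2.80), which binds calcineurin there, showed both array orders. Fhl2, a LIM protein of the sarcomere found also outside muscle, read 7.82, 7.62 and 7.84 in mutants, against 8.56, 7.77 and 7.41 in controls, so that mutant 2 was the lowest mutant.

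The genes of calcium release and uptake followed the same arrays. Pln, the phosphoprotein that restrains the calcium pump of the sarcoplasmic reticulum, read 9.23, 10.86 and 7.50 in mutants, against 10.98, 8.16 and 8.75 in controls. Hrc, a calcium-binding protein of the store, read 7.55, 9.03 and 6.31 in mutants, against 9.43, 6.49 and 7.17 in controls. Ryr2, the calcium release channel, ranged over 2.70, Casq2, the calcium buffer of the store, over 2.52, and Sln, the pump regulator of atrial muscle, over 2.17. Atp2a2, the pump itself, which other cells also use, read 11.18, 11.58 and 11.08 in mutants, against 11.66, 10.92 and 10.89 in controls, within 1.70-fold. Trdn, which anchors calsequestrin to the release channel, had 19 probe sets. The one with the highest mean ranged over 0.97, and 3 of the 19 ranged over at least 2. The widest read 6.94, 8.73 and 5.61 in mutants, against 8.69, 6.56 and 6.79 in controls, a range of 3.12. Control 1 or mutant 2 was the highest array in 18 of the 19, some of them below the lower quartile of every array. Over all 19938 genes control 1 was the highest array for 4048 and mutant 2 for 3560.

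Nppa, the precursor of atrial natriuretic peptide, varied more between arrays of 1 genotype than any other of the 19938 genes, with a within-genotype SD of 3.03. It read 9.92, 11.66 and 5.58 in mutants, against 11.37, 5.90 and 6.84 in controls, a range of 6.08 or 67.6-fold. Mutants 1 and 2 and control 1 were high, and the other 3 arrays low. Mutant 1 and control 3 had almost the same mean over the 33 genes (8.17 and 8.15), yet Nppa stood at 9.92 in mutant 1 and 6.84 in control 3. Set against the mean of the other 32 genes, Nppa lay 1.81 and 2.44 above it in mutants 1 and 2 and 1.74 below it in mutant 3, and 1.77 above it in control 1 but 1.68 and 1.36 below it in controls 2 and 3. Nppb, the precursor of the B-type peptide of the heart, read 5.47, 6.14 and 5.21 in mutants, against 6.38, 5.23 and 5.52 in controls, a range of 1.17.

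Corin, the heart protease that cleaves the precursor of atrial natriuretic peptide, was picked after its values were seen. It read 7.33, 8.36 and 6.43 in mutants, against 7.34, 5.17 and 5.52 in controls, and the groups overlapped through mutant 3 and control 1. Its log2 difference was 1.36 (SE 0.69), and it did not pass limma over all genes (adjusted p = 0.583).

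**Figure D2:**
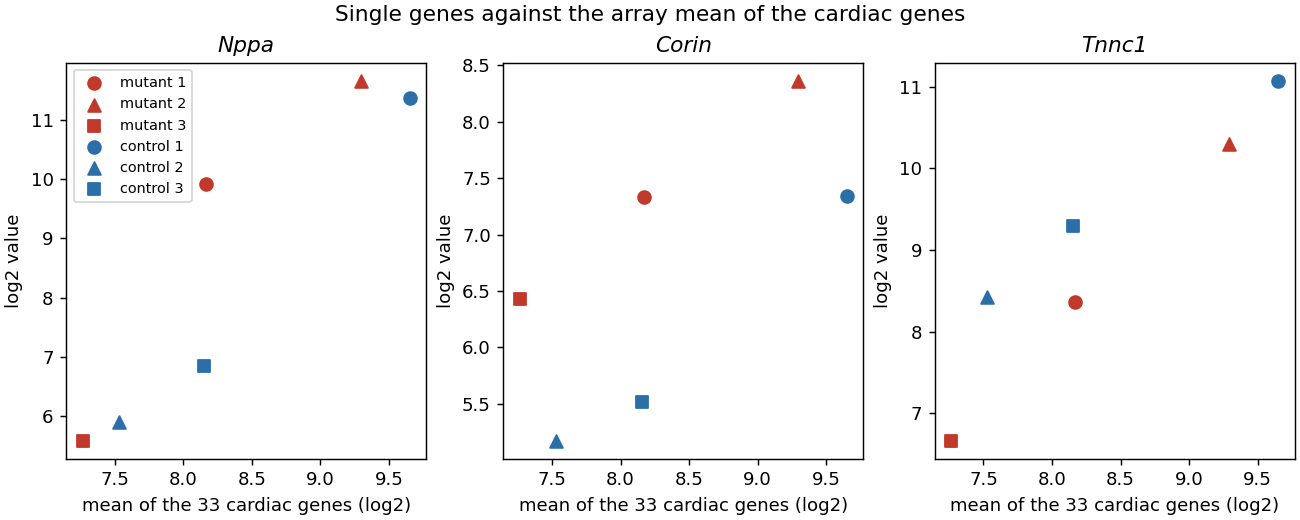
Each panel sets the log2 value of a gene (vertical axis) against the mean of the 33 cardiac genes on the same array (horizontal axis, log2), with mutants in red and controls in blue and a marker shape for each replicate number. Mutant 1 and control 3 share a mean near 8.17 and 8.15 but read 9.92 and 6.84 for Nppa and 7.33 and 5.52 for Corin, while Tnnc1 reads 8.37 and 9.30.

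The transcription factor and gap junction genes were the least variable group. Nkx2-5, a homeodomain factor of heart muscle identity, read 6.75, 6.68 and 6.48 in mutants, against 6.63, 6.29 and 6.64 in controls. It was the single member that was highest in neither control 1 nor mutant 2. Tbx5, a T-box factor of the atria that is also active in lung mesenchyme, read 7.80, 8.19 and 7.58 in mutants, against 8.71, 7.17 and 7.99 in controls. Gja5, connexin 40, which couples atrial muscle cells and also arterial endothelial cells, read 8.15, 8.94 and 7.86 in mutants, against 8.38, 7.25 and 8.0 in controls. All 3 groups of values overlapped.

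All 4 genes of oxygen and energy supply showed both array orders. Ckmt2, the mitochondrial creatine kinase of striated muscle, read 6.53, 8.21 and 5.45 in mutants, against 8.81, 5.80 and 6.91 in controls. Cox6a2, a muscle subunit of cytochrome c oxidase, read 10.05, 10.09 and 8.52 in mutants, against 11.80, 9.19 and 10.12 in controls, so that mutants 1 and 2 stood nearly level. Cox7a1, another muscle subunit, read 8.52, 9.71 and 7.44 in mutants, against 9.93, 7.59 and 8.42 in controls. Mb, the oxygen-binding myoglobin, ranged over 3.15.

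Over the whole list, 23 of 33 genes (69.7%) ranged over at least 2 on the log2 scale, as did 1.98% of all genes. The median SD between arrays of 1 genotype was 1.20 for the cardiac genes and 0.15 for all genes, and 27 of the 33 lay above the 95th percentile of all genes, an SD of 0.46. The genotype accounted for a median of 1.57% of a cardiac gene's variance over the 6 arrays, against 16.3% for all genes.

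**Figure D3:**
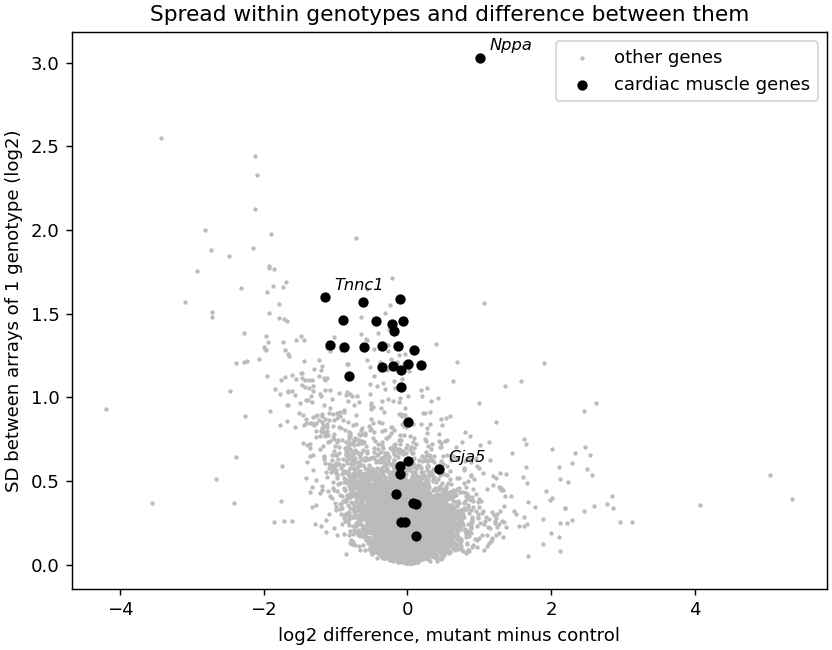
Each point is a gene, with the log2 difference of mutant minus control on the horizontal axis and the SD between arrays of 1 genotype on the vertical axis, in log2 units. Of the 33 cardiac genes (black), 27 have an SD above the 95th percentile of all 19938 genes (other genes in grey). Nppa is at the top at an SD of 3.03 and Tnnc1 at 1.60, while Nkx2-5 lies low at 0.17. The differences of the cardiac genes run from -1.15 to 1.02.

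Between genotypes no cardiac gene passed. The comparison of mutant with control airways used limma over all named genes, with Benjamini-Hochberg adjustment and a threshold of 0.05. It called 0 of the 33 genes, where it called 0.266% of all genes, and the smallest adjusted p was 0.751, for Myl3. At an unadjusted p under 0.05 there were 0 as well, against 10.1% of all genes. The genotype groups overlapped for every cardiac gene, while they did not overlap for 15.0% of all genes. The median log2 difference, mutant minus control, was -0.10 for the cardiac genes and 0.02 for all genes, and 23 of 33 lay below 0, as did 45.4% of all genes. That direction rested on single arrays. Without control 1 the median was 0.38 with 27 genes above 0, and without mutant 3 it was 0.22 with 26 above 0. Without mutant 2 it was -0.68, without control 2 -0.62 and without control 3 -0.30.

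By role, the largest differences were those of Tnnc1 and Myl3 downward and Nppa upward, none of which passed. Tnnc1 averaged 8.44 ± 1.82 in mutants and 9.60 ± 1.35 in controls (SD, n = 3 each), a difference of -1.15 (95% interval -3.62 to 1.32, limma adjusted p = 0.797). Myl3 averaged 6.77 ± 1.21 in mutants and 7.85 ± 1.40 in controls, a difference of -1.08 (-3.10 to 0.95). Nppa averaged 9.05 ± 3.13 in mutants and 8.04 ± 2.93 in controls, a difference of 1.02 (-3.65 to 5.69, adjusted p = 0.927). The intervals of Tnnc1 and Nppa include more than a doubling in either direction, so the comparison does not show that the genotypes were alike. The narrow genes gave narrower limits, from -0.45 to 0.40 for Actc1, from -0.52 to 0.34 for Myh7 and from -0.19 to 0.44 for Nkx2-5. Median differences by role were -0.61 for the thick filament, -0.19 for the thin filament, -0.16 for titin, Z disc and M band, -0.07 for calcium release and uptake, 0.12 for the transcription factors and gap junction, and -0.33 for oxygen and energy supply. The 2 natriuretic peptide genes differed by 1.02 and -0.10.

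**Figure D4:**
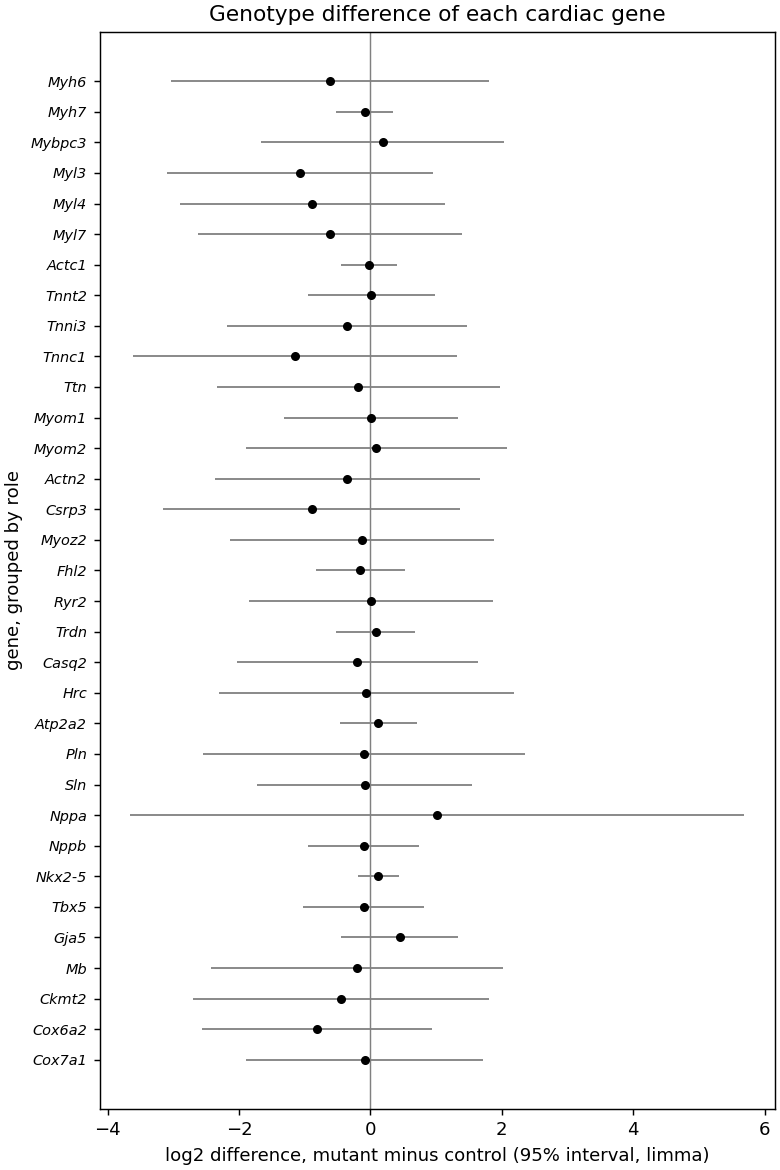
Points give the log2 difference of mutant minus control for each cardiac gene, grouped by role down the page, and bars its 95% interval from limma. Every interval includes 0, and that of Nppa is the widest, from -3.65 to 5.69.

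Genes known from atrial and ventricular muscle were set apart to check the label of a vein sleeve. Both array orders held for 10 of 12 atrial genes, 5 of them members, and for 4 of 5 ventricular genes, 2 of them members. Mybphl, a myosin-binding protein of atrial muscle, read 8.22, 9.55 and 6.51 in mutants, against 10.03, 7.11 and 8.09 in controls. Kcnj3, a channel subunit of the atrial acetylcholine-gated potassium current, ranged over 3.03. Bmp10, a growth factor known from the right atrium, stayed between 4.06 and 4.25 in mutants and between 4.06 and 4.21 in controls, below the lower quartile of every array. Among the ventricular genes Myl3 ranged over 3.53, Myh7 over 0.59 and Hey2 over 0.56. Myl2, the regulatory light chain of the ventricle, read 4.52, 4.55 and 4.48 in mutants, against 4.58, 4.23 and 4.54 in controls. It followed both array orders within a range of 0.35, close to the lower quartile, where RMA shrinks differences. Irx4, a ventricular transcription factor, ranged over 0.16 and did not follow the control order. The orders therefore do not set atrial genes apart from ventricular ones. The size of the movement did differ, with a median range of 2.36 for the 12 atrial genes and 0.56 for the 5 ventricular ones. Myl3 alone of the ventricular genes exceeded that atrial median. The ventricular list was also dimmer, with array means from 5.36 to 6.31, against 6.03 to 8.38 for the atrial list. The part of signal level in this difference of ranges was not tested. Which vessel or chamber the muscle came from was not tested.

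Heart muscle genes outside the 33 followed the same arrays, but less closely. Of 40 further heart muscle genes 38 were measured, and their mean was 6.58, 7.12 and 6.13 in mutants, against 7.55, 6.15 and 6.44 in controls. Control 1 was the highest array for 28 of them and both array orders held for 22, where both held for 28 of the 33 members. The median range was 1.59 for these further genes and 2.70 for the members. Mutant 2 exceeded mutant 3 by a median of 0.60 for the further genes and 2.25 for the members. The further genes were also dimmer than the members, whose array means ran from 7.26 to 9.65. The part of signal level in these contrasts was not tested. None of the further genes passed between genotypes, and their median log2 difference was -0.06. That median moved to -0.29 without the dimmest 40% of all genes, to -0.28 without control 2 and -0.24 without mutant 2, and to 0.21 without control 1 and 0.057 without mutant 3. Smpx, a small stretch-responsive muscle protein, ranged widest, with 7.83, 9.60 and 5.43 in mutants, against 10.22, 6.64 and 8.16 in controls.

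Ranking 1803 other named genes that ranged over at least 1 by their Pearson correlation with the mean of the 33 genes over the 6 arrays put Mybphl first (r = 0.994). Next came Tmod4, a thin filament capping protein, Lpl, the lipase that frees fatty acids for muscle and fat, Kcnj3, Gpm6a, a membrane glycoprotein listed here under mesothelium, and Klhl31. Tmem182, Fabp3, the fatty acid carrier of heart muscle, Fmo1, a monooxygenase, and Pgam2, the muscle phosphoglycerate mutase, completed the first 10, all at 0.985 or above. Without the arrays farthest from the median, control 1 and mutant 2, their r lay between 0.904 and 0.996. These genes were chosen for the likeness, which carries no test, and all of it rests on the same 6 arrays.

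Other tissues of the block followed the cardiac genes to different degrees. Of 20 adipocyte genes 18 were measured, and their mean was 7.51, 8.04 and 7.23 in mutants, against 8.67, 6.97 and 7.38 in controls, so control 1 and mutant 2 were again the high arrays. Ucp1, the uncoupling protein of brown fat, read 4.89, 6.68 and 4.82 in mutants, against 8.42, 4.82 and 4.84 in controls, and stood clear of the other arrays in control 1 and mutant 2 alone. Adipoq, the adipocyte hormone adiponectin, read 8.31, 9.46 and 7.95 in mutants, against 10.33, 7.17 and 8.31 in controls. Both array orders held for 8 of the 18 adipocyte genes. The part of fat in the cardiac values was not tested.

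**Figure D5:**
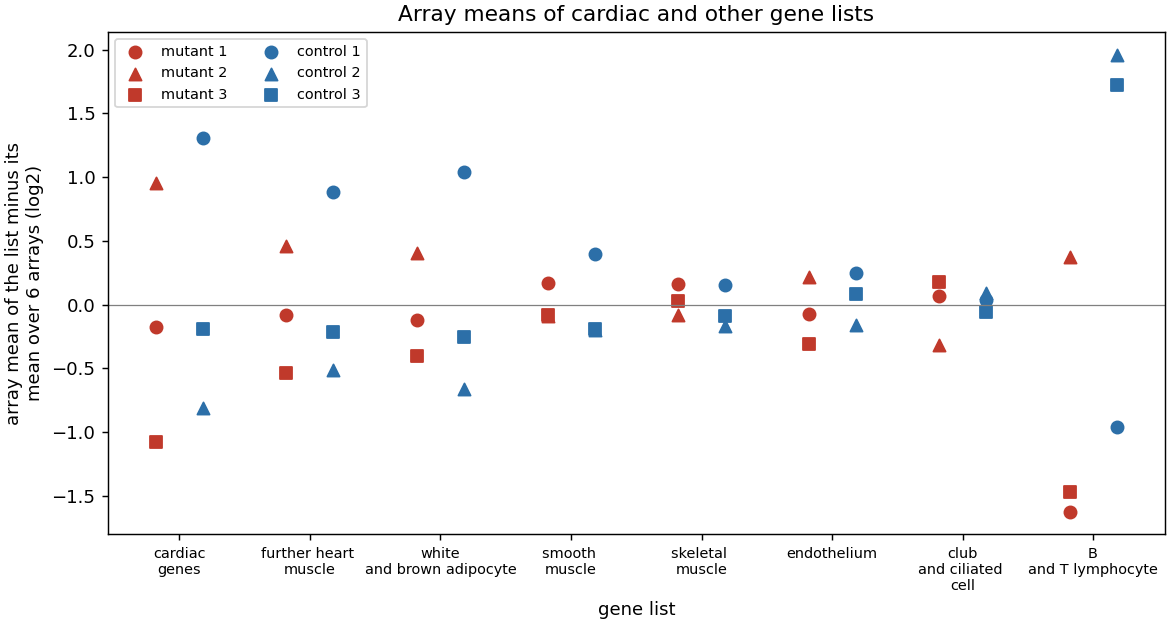
Points give the mean log2 value of a gene list on each array minus the list's mean over the 6 arrays, with mutants in red left of controls in blue and a marker shape for each replicate number. Control 1 and mutant 2 are highest for the cardiac genes, for the further heart muscle genes and for adipocyte genes. They are also highest for endothelial genes, within a narrower band. Skeletal muscle and epithelial means keep within a narrower band as well, and lymphocyte means are highest in controls 2 and 3.

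Skeletal and smooth muscle genes followed the control order more often than the mutant order. The control order held for 10 of 21 skeletal and 7 of 15 smooth muscle genes, against 24.3% of all genes. The mutant order held for 0 skeletal genes and 1 smooth muscle gene, against 16.5% of all genes. Control 1 was the highest array for 6 skeletal and 10 smooth muscle genes. The 21 skeletal muscle genes averaged 5.60, 5.35 and 5.46 in mutants, against 5.58, 5.27 and 5.34 in controls, and both array orders held for 0 of them. The widest were Tnnt3, the fast troponin T, which at 9.99, 8.99 and 9.99 in mutants was lowest in mutant 2, against 10.11, 8.92 and 8.56 in controls, and Myl1 with a range of 1.07. The 15 smooth muscle genes averaged 10.10, 9.83 and 9.85 in mutants, against 10.32, 9.72 and 9.73 in controls, and the member Pln was the single one with both orders. Synpo2 ranged over 1.01, and Acta2, the smooth muscle actin, over 0.33.

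Of the remaining lists, both orders held for 3 of 11 endothelial genes, 3 of 9 mesothelial, 1 of 8 fibroblast, 0 of 9 cartilage, 0 of 7 nerve and Schwann cell, 1 of 8 club and ciliated cell, 2 of 8 alveolar and 0 of 8 lymphocyte genes. The mean of the endothelial genes did keep both orders, at 8.27, 8.56 and 8.04 in mutants, against 8.59, 8.19 and 8.43 in controls. Control 1 was the highest array for 7 of the 9 cartilage genes and 6 of the 9 mesothelial genes. None of the genes in these lists passed between genotypes. Their widest genes were Emcn (range 1.18) and Tek (1.02) in endothelium, Msln (3.41) and Upk1b (2.49) in mesothelium, Lum (1.38) and Pdgfra (0.95) in fibroblasts, Acan (1.65) and Sox9 (1.19) in cartilage, Prph (0.81) and Th (0.67) in nerve, Dnah5 (1.13) and Rsph1 (0.89) in epithelium, and Rtkn2 (1.22) and Aqp5 (0.94) in the alveolus. B and T lymphocyte genes averaged 5.96, 7.96 and 6.11 in mutants, against 6.62, 9.54 and 9.31 in controls, so that control 1, high for the cardiac genes, was the low control here. Ms4a1 ranged over 5.15 and Cd79a, both of B cells, over 4.74.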

How the data were processed

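RNA from 3 mutant and 3 control airway samples was measured on Affymetrix mouse gene arrays. The authors deposited log2 values for every probe set, and per the submitters' processing notes the tools were oligo, RMA and limma. RMA subtracts background, gives arrays a common distribution and shrinks differences between dim signals. No source used here gives versions or says if the arrays were normalised as a set, and scanner files were not used here.

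Of 35556 probe sets, 21789 named 1 gene, 1621 several and 12146 none. The probe set with the highest mean was kept for each of 19938 genes. For the test of genotype, limma 3.58.1 in R 4.3.3 (lmFit, eBayes, two-sided) had genotype as its single term, with Benjamini-Hochberg adjustment over all genes and no filter on dim genes. Differences are mutant minus control, and the SD within genotypes is the residual SD of that model. Lists are described by counts and medians. Same-numbered arrays deviated from their group means with correlations of 0.14, -0.09 and -0.04, so the numbers were not taken as pairs.

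The members, lists and alternatives were chosen with earlier results of these data known. The naming rule gave array by array the 2 widest-ranging members of each of 7 roles and the narrowest, named the 2 widest genes of each of 14 other lists, and named the 10 genes most like the members' mean among genes with a range of at least 1, without predicted transcripts, small RNAs or olfactory and vomeronasal genes. Genes named beyond it were chosen after their values were seen. In a simulation of the genotype comparison over 19938 genes, 85% of 100 genes changed by 1 on the log2 scale and 98% of 100 changed by 3 were called, with 9 false calls. The changed genes were drawn from all genes, whose median SD within genotypes was 0.15, and were simulated independently. The cardiac genes had a median SD of 1.20, so these shares do not apply to them. Python 3.11.15, pandas 2.3.3 and matplotlib 3.10.9 served for tables and figures.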

Additional observations from a re-analysis of the deposited data

How the results depend on the processing

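No cardiac gene was called under any alternative run: a second quantile normalisation, centring of arrays on their medians, a filter on the dimmest 40% of genes (which kept 31 members), the replicate block, array weights, averaged probe sets per gene, eBayes with a trend or robust, a threshold of 0.1, each array left out, and control 1 and mutant 2 left out together. None was called with the members' mean as a covariate either, a setting chosen after seeing the data. The members make up that covariate, so this fit is no test of them. With the replicate block the median log2 difference was -0.10 and the smallest adjusted p of a member 0.738. Array weights moved the median to -0.33. Leaving out each array in turn gave medians from -0.68 to 0.38 for the members and from -0.28 to 0.21 for the further heart muscle genes, whose median was -0.29 with the filter on dim genes. The median SD within genotypes ranged from 0.99 to 1.36 when 1 array was left out, and was 0.51 without control 1 and mutant 2, where all genes had 0.11. Control 1 and mutant 2 had the highest means of the members, so that smaller SD was largely set by the choice of arrays.

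Of the 20 members given array by array, 14 changed sign when some array was left out, their differences ranging from -1.47 to 0.26 for Myh6, -0.25 to 0.039 for Myh7, -0.14 to 0.17 for Actc1, -0.93 to 0.28 for Tnni3, -0.93 to 0.62 for Ttn, -0.41 to 0.17 for Fhl2, -0.93 to 0.75 for Pln, -0.77 to 0.80 for Hrc, -0.031 to 0.37 for Atp2a2, -0.29 to 2.75 for Nppa, -0.37 to 0.23 for Nppb, -0.50 to 0.27 for Tbx5, -1.18 to 0.38 for Ckmt2 and -0.67 to 0.55 for Cox7a1. With array weights Actc1 (0.079) and Fhl2 (0.16) also turned. The cause was not tested. Signal over background was not known, so dim genes such as Nppb and Myl2 have no detection limit here.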

Other observations

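The per-array mean of the 33 genes was added to the limma model as a covariate, a setting chosen after seeing the data. Corin, also picked after its values were seen, did not pass without the covariate (limma adjusted p = 0.583). With it, Corin was 1.57 higher in mutants (95% interval 1.28 to 1.86) and passed (limma adjusted p = 0.0134), where 0.401% of all genes passed. The adjusted p takes neither choice into account. In the same fit Nppa was 1.58 higher (0.34 to 2.82) and did not pass (adjusted p = 0.314). Csrp3 (-0.61), Myl3 (-0.83), Tnnc1 (-0.85), Gja5 (0.55), Mybpc3 (0.42), Myl4 (-0.65) and Nppa had an unadjusted p under 0.05, which held for 12.3% of all genes, and none of these members passed. In the model without the covariate, leaving out each array gave differences of 0.87 to 2.03 for Corin. The members enter the covariate themselves, so their differences in this fit cancel over the 33 genes by construction. Their signs and p-values are thus partly set in advance and are no test of the members. This fit also leaves few degrees of freedom.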
